A study of Mus musculus with 18 samples.

Results

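Transcript signals of 9 genes of primitive endoderm were examined in mouse embryonic stem cells given Foxd3, CA-NFATc3 or both, and in cells in which Foxd3 could be deleted. The genes were the transcription factors Gata4, Gata6, Sox17, Sox7, Foxa2 and Hnf4a, the receptor Pdgfra, the endocytic adaptor Dab2 and the endocytic receptor Cubn. Every probe set annotated to 1 of these symbols was taken, which gave 23 probe sets for 9 of the 18193 genes with such a probe set on the Affymetrix array. The arrays covered 6 groups, each with 3 biological replicates. CGR8 cells on 12 arrays had received Foxd3 with CA-NFATc3, Foxd3 alone, CA-NFATc3 alone or an empty vector by lipofection, and all of them were cultured in GMEM with 10% serum and LIF. The other 6 arrays were of Foxd3fl/fl:Cre-ERT cells, given tamoxifen for 2 days or DMSO with tamoxifen for 0 days, so that the DMSO cells also carried the floxed alleles and the Cre. Their labels name the same CGR8 source and protocols. The prefix CA usually stands for constitutively active, and NFATc3 is a transcription factor controlled by calcineurin. The promoters of the plasmids, the time after transfection, the number of clones and the use of feeder cells were not stated in those labels.

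Primitive endoderm is the epithelium that forms on the inner cell mass of the blastocyst, beside the epiblast from which embryonic stem cells are derived. It later yields visceral endoderm, which absorbs and secretes nutrients, and parietal endoderm, which lays down a thick basement membrane. In mouse embryos FGF4 made by epiblast precursors acts through FGF receptors and ERK to raise Gata6, and Pdgfra, Sox17, Gata4 and Sox7 follow in the same cells. Dab2 and Cubn act in the uptake of ligands at the endoderm surface.

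The values are MAS5 signals, an intensity per probe set on a linear scale. Changes are log2 differences of the signal plus 32, with the SE of a limma fit over 3 arrays per group, and a change was called at an adjusted p under 0.05 over all probe sets tested. A probe set was tested where at least 3 arrays of the fit reached 65.8, the median of all deposited values. This is a filter and not a background level, since no detection calls were used here. A fold against a group with arrays under 65.8 is a lower bound, computed with those arrays set to 65.8. Levels of different probe sets were not compared.

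The targeted gene went against its label in the transfected cells. The Foxd3 probe set averaged 234 ± 37.7 where Foxd3 with CA-NFATc3 was the label, 237 ± 5.95 in those labelled Foxd3, 451 ± 38.6 in the CA-NFATc3 arrays and 443 ± 55.9 in the vector arrays (SD, n = 3 each). It fell by 0.81 ± 0.13 in the arrays labelled Foxd3, against vector (limma adjusted p = 0.00239). Whether this probe set can detect the transcript of the plasmid is not known here, and neither is whether labels were exchanged, which would change what each Foxd3 value below stands for. Directions involving Foxd3 below are those of the labels, and "both plasmids" stands for the arrays labelled Foxd3 with CA-NFATc3. In the tamoxifen arrays the signal was 31.4 ± 29.6, against 219 ± 25.9 in DMSO arrays, a log2 change of -2.08 ± 0.27 (limma adjusted p = 0.000174). Neither tested probe set of Nfatc3 passed between CA-NFATc3 and vector, with adjusted p-values of 0.452 and 0.340 in limma. All 10 embryonic stem cell markers on the list were measured in both sets of cells, with summed signals of 90586 to 115107 in transfected and 79927 to 87118 in knockout cells. Of the 10, limma called 3 lower with both plasmids, 1 lower with Foxd3 and 1 lower with CA-NFATc3 against vector, and 2 higher and 3 lower with tamoxifen against DMSO. The call with CA-NFATc3, Klf2, was lost in 4 fits that left out an array, with adjusted p-values of 0.0544 to 0.120. With both plasmids Klf2 was lost in 3 such fits (up to 0.139) and Esrrb in 8 settings (up to 0.163). The rise of Klf2 with tamoxifen was lost without DMSO replicate 2, tamoxifen replicate 2 or tamoxifen replicate 3 (0.0517 to 0.0607). Over all probe sets, limma called 2.84 percent with both plasmids, 1.71 percent with Foxd3 and 3.57 percent with CA-NFATc3 against vector. With tamoxifen it called 28.3 percent.

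Promoter windows are shown for Dab2 and Pdgfra, the members that rose with tamoxifen, and for Cubn, the receptor that works with Dab2. They come from RefSeq on GRCm38.p6 and run from 250 bases before to 50 after an annotated start, printed 5′ to 3′ on the strand of the gene. Capitals mark matches, on either strand, to AGATAA or TGATAA for GATA factors, TGTTTAC for forkhead factors, TGGAAA for NFAT, and ACAAAG or AACAAT for SOX factors.
Dab2, chr15:6299539-6299838, plus strand: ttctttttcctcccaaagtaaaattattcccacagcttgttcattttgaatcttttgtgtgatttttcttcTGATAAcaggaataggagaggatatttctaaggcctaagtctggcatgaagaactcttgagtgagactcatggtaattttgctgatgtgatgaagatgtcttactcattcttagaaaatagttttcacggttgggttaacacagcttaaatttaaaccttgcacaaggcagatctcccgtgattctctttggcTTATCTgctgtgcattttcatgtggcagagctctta
Dab2, chr15:6386498-6386797, plus strand: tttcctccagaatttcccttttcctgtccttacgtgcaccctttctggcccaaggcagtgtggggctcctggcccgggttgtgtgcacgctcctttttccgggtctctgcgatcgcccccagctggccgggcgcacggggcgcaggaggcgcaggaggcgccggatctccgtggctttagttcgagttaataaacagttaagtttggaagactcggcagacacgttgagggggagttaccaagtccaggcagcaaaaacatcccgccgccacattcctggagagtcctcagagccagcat
Pdgfra, chr5:75152001-75152300, plus strand: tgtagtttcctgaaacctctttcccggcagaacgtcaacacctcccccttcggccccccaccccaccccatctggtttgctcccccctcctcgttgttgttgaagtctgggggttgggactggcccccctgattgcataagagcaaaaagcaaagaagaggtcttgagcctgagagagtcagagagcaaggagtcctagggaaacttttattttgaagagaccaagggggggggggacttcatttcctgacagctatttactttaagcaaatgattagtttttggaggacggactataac
Cubn, chr2:13491827-13492126, minus strand: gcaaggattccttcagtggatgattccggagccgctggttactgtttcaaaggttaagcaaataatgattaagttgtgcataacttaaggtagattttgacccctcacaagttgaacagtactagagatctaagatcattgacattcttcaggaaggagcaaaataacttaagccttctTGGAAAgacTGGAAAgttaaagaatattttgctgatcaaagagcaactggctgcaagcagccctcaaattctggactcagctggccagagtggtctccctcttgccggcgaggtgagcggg
The first Dab2 window held TGATAA with its first base at position -179 from the start, and TTATCT, the reverse complement of AGATAA, at position 15. The Cubn window held TGGAAA at positions -71 and -62. The second Dab2 window and the Pdgfra window held none of these letters. Of all 32851 such windows, 18.6% held the GATA letters, 3.65% the forkhead letters, 21.4% the NFAT letters and 27% the SOX letters, so such matches are common. Windows for Foxa2 and Hnf4a were searched as well but are not printed. A Foxa2 window held AGATAA at position -183, CTTTGT, the reverse complement of ACAAAG, at -171 and ACAAAG at 30. An Hnf4a window held AGATAA at -52 and TTTCCA, the reverse complement of TGGAAA, at -236. The other windows of these genes held none of these letters. Gata4, Gata6, Sox7 and Sox17 are named only.

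Most of the 23 probe sets lay near the lower end of the signal range. In the transfected cells 6 probe sets of 5 genes could be tested, and in the knockout cells 9 probe sets of 6 genes. Of the 13 that passed in neither set of cells, 8 stayed under 65.8 in every array. Gata4 and Foxa2, both regulators of endoderm genes, were among the untested genes, with highest signals of 87.4 and 68.6. Hnf4a, a nuclear receptor of visceral endoderm and liver, passed in the transfected cells only, through the probe set 1427001_s_at, with a highest signal of 103. The highest signals of the other genes were 631 for Dab2, 335 for Pdgfra, 282 for Sox7, 208 for Sox17, 206 for Cubn and 173 for Gata6.

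**Figure D1:**
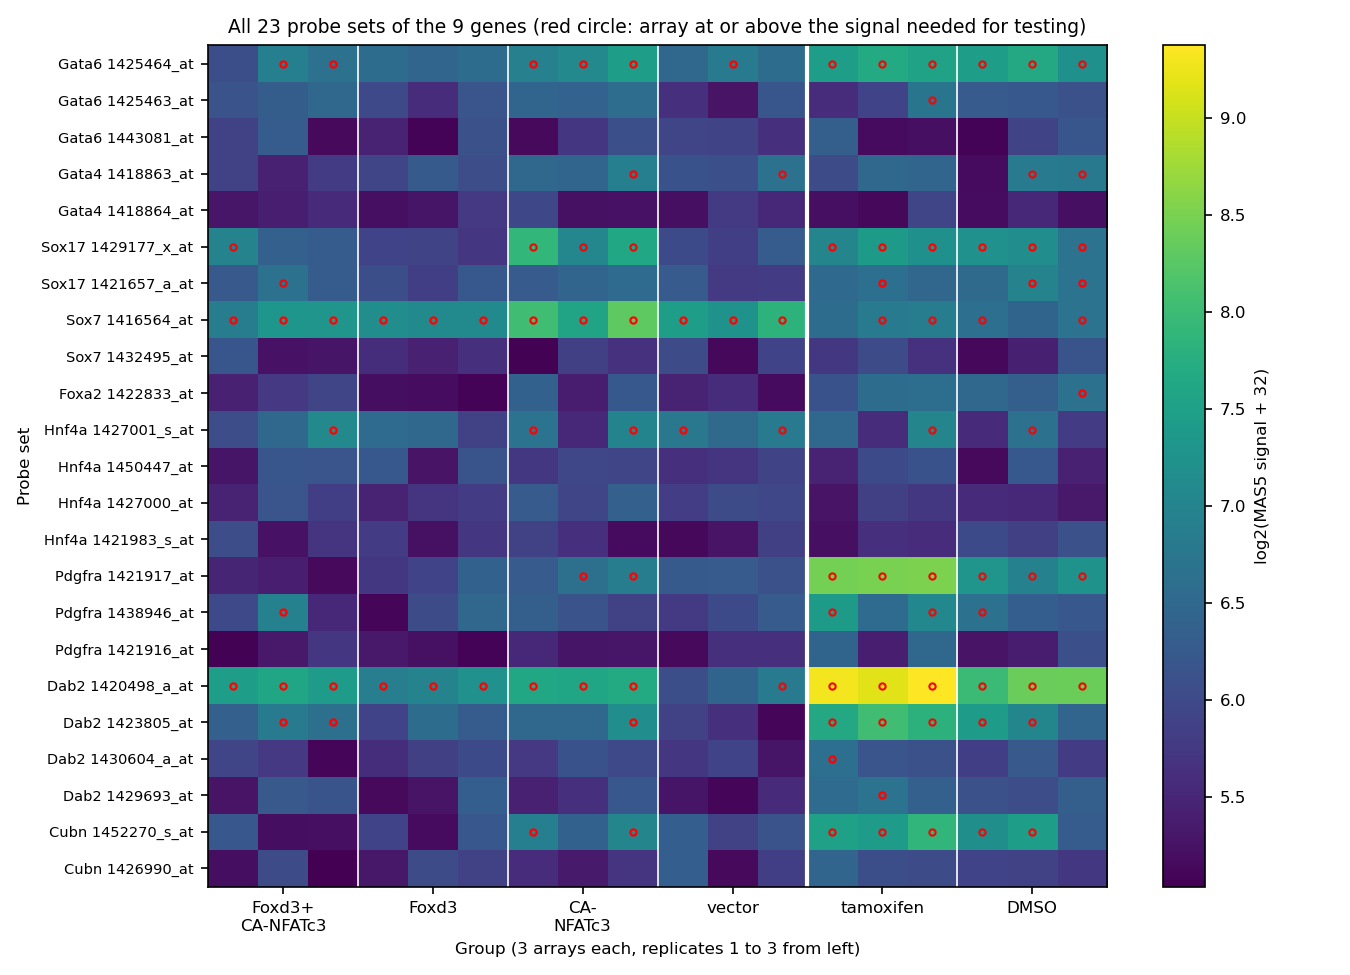
Each row is 1 of the 23 probe sets and each column 1 of the 18 arrays, with 3 replicates per group. Colour gives log2 of the MAS5 signal plus 32, and a red circle marks a signal of at least 65.8. Each gene has at least 1 row with a circle, and 8 rows have none.

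CA-NFATc3 came with higher Sox17 and Dab2 signals, and the other factors did not pass or were not tested. The question of this comparison is what the active NFATc3 changes in otherwise undisturbed stem cells. Sox17 is an HMG-box factor of primitive and definitive endoderm. The suffix of its probe set 1429177_x_at marks probes that can also match other sequences, so its values are uncertain to that extent. It gave signals of 208, 99.97 and 166 in the CA-NFATc3 arrays, against 32.7, 25.3 and 46.9 in the vector arrays. All 3 CA-NFATc3 arrays lay above all 3 vector arrays. The log2 change was 1.47 ± 0.25 (limma adjusted p = 0.00223), at least 2.40-fold. The second Sox17 probe set, 1421657_a_at, was not tested in these cells. It read 45.3, 55.9 and 61.5 with CA-NFATc3, against 45.9, 22.4 and 23.9 with vector, so that 1 vector array fell within the range of the CA-NFATc3 arrays.

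Dab2 encodes a clathrin adaptor that couples cargo receptors to endocytosis. Its probe set 1420498_a_at gave 166, 160.1 and 175 in the CA-NFATc3 arrays, against 35.7, 54.1 and 80.3 in the vector arrays. The groups did not overlap, and the log2 change was 1.20 ± 0.18 (limma adjusted p = 0.000858), at least 2.36-fold. The probe set 1423805_at read 57.1, 58.7 and 111 with CA-NFATc3, against 26.9, 17.3 and 2.57 with vector. It too did not overlap, and it changed by 1.18 ± 0.27 on the log2 scale (limma adjusted p = 0.0207). This probe set was tested in 9 of the 12 fits that left out 1 array and called in 8 of those. The call was lost without vector replicate 3, the lowest array, where the limma adjusted p was 0.116. In the remaining fits it did not pass the filter. A filter on the mean, or a fit of these groups alone, also left it untested. Both called Sox17 and Dab2 changes on 1429177_x_at and 1420498_a_at were called in all 12 fits that left out 1 array.

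The probe sets of Sox17 (1429177_x_at) and Dab2 (1423805_at) passed the filter only through arrays with CA-NFATc3, alone or with Foxd3, so that their presence among the tested probe sets already favoured a difference. Of the 6 member probe sets tested, 3 were called and all 3 were higher, beside 3.57 percent of all probe sets called in either direction and 2.84 percent called higher. Changes of the remaining 3 missed the threshold. Gata6, the zinc-finger factor at the head of the endoderm programme, read 89.6, 103 and 143 on 1425464_at with CA-NFATc3, against 58.3, 79.6 and 62.5 with vector. These groups did not overlap either, but the log2 difference of 0.53 ± 0.22 did not pass (limma adjusted p = 0.299). The untested Gata6 probe set 1425463_at read 55.3, 52.5 and 63.5 with CA-NFATc3, against 17.5, 6.49 and 41.6 with vector, without overlap. With no filter its log2 difference of 0.78 ± 0.25 did not pass (limma adjusted p = 0.204). The untested 1443081_at overlapped between these groups. Sox7, an HMG-box factor closely related to Sox17, read 231, 159 and 282 on 1416564_at with CA-NFATc3, against 144, 120.3 and 196 with vector. The groups overlapped, and the log2 difference was 0.45 ± 0.20 (limma adjusted p = 0.336). Hnf4a differed by -0.32 ± 0.34 on 1427001_s_at (limma adjusted p = 0.795).

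**Figure D2:**
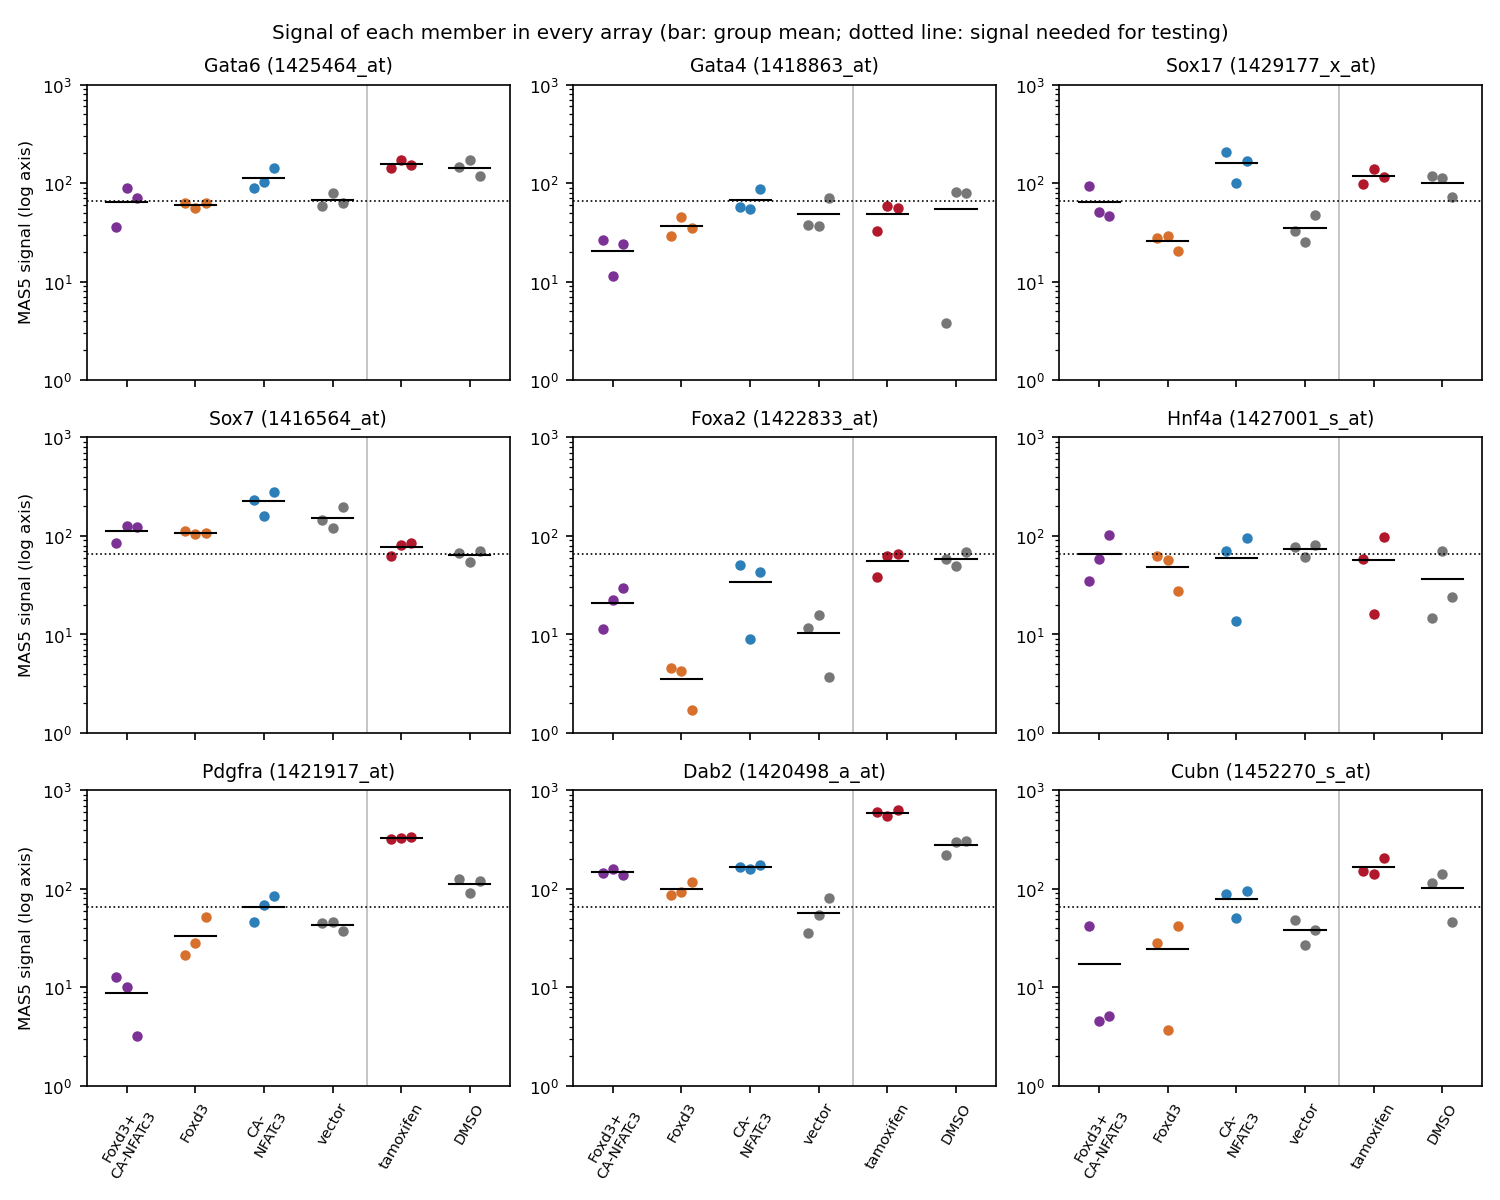
Each panel plots the MAS5 signal of 1 gene on a log axis, for the probe set with the highest mean over all arrays. Points are single arrays, bars are group means and the dotted line is 65.8. Sox17 is highest in the CA-NFATc3 arrays (99.97 to 208), while Dab2 and Pdgfra are highest in the tamoxifen arrays (546 to 631 and 321 to 335).

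Untested members were low in these groups. Pdgfra, the PDGF receptor that marks primitive endoderm precursors, read 45.8, 67.8 and 85.1 on 1421917_at with CA-NFATc3, against 45.1, 45.9 and 37.3 with vector. Cubn, the receptor cubilin, read 88.7, 51.1 and 96.3 on 1452270_s_at with CA-NFATc3, against 48.3, 26.7 and 38.5 with vector, without overlap. Gata4 (1418863_at) read 57.4, 54.9 and 87.4 with CA-NFATc3, against 37.8, 36.4 and 69.7 with vector. Foxa2 read 51.2, 9.08 and 42.7 with CA-NFATc3, and 11.5, 15.9 and 3.70 with vector, a spread that leaves no order between the groups. These 4 probe sets were not tested, because fewer than 3 of the 12 arrays reached 65.8.

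In the arrays with both plasmids, Dab2 stayed high relative to vector while Sox17 and Sox7 were lower than with CA-NFATc3 alone. The question here is whether the response to CA-NFATc3 differs when Foxd3 is supplied with it. Dab2 (1420498_a_at) read 144, 159.9 and 139.7 with both plasmids, against the vector values given above. The groups were separate, and the log2 change was 1.05 ± 0.18 (limma adjusted p = 0.0039), at least 2.10-fold. Against CA-NFATc3 alone the same probe set differed by -0.15 ± 0.18, which did not pass (limma adjusted p = 0.813). The probe set 1423805_at gave 49.96, 80.9 and 67.9 with both plasmids and rose by 1.07 ± 0.27 over vector (limma adjusted p = 0.0461). That call was lost in 10 alternative settings, with adjusted p-values up to 0.205 when vector replicate 3 was left out. Settings that did not test the probe set are not among these. It was tested in 9 of the 12 fits that left out 1 array and called in 3 of those. A filter on the mean or only the 2 groups in the fit left it untested. Of 6 member probe sets tested against vector, 2 were called, both of Dab2 and both higher. Of all probe sets, 2.84 percent were called in either direction and 2.16 percent were called higher. The probe set 1423805_at passed the filter only through arrays with CA-NFATc3, alone or with Foxd3. Its presence among the tested probe sets thus already favoured a difference from vector.

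Sox17 (1429177_x_at) gave 94.0, 50.4 and 46.2 with both plasmids, against 208, 99.97 and 166 with CA-NFATc3 alone. The groups did not overlap, and the signal fell by 0.98 ± 0.25 on the log2 scale (limma adjusted p = 0.0385), at least 2.10-fold. The fall rested on this probe set alone. The untested 1421657_a_at read 44.1, 69.97 and 46.4 with both plasmids, against 45.3, 55.9 and 61.5 with CA-NFATc3 alone, with overlapping groups and a log2 difference of -0.02. Against vector the log2 difference on 1429177_x_at was 0.49 ± 0.25 (limma adjusted p = 0.395). Sox7 (1416564_at) gave 84.0, 128 and 125 with both plasmids, against 231, 159 and 282 with CA-NFATc3 alone. Here too the groups were separate, and Sox7 fell by 0.81 ± 0.20 (limma adjusted p = 0.0309). The mean with both plasmids was 0.500 of the mean with CA-NFATc3.

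Both falls were the only calls among 6 member probe sets tested between these groups. Of all probe sets, 3.92 percent were called in either direction and 2.25 percent were called lower. The Sox17 probe set passed the filter through all 3 arrays with CA-NFATc3 alone and 1 array with both plasmids. Its presence among the tested probe sets thus already favoured a difference. Sox7 reached the filter in every array of both groups. Both falls were lost with no filter on low signals, at limma adjusted p-values of 0.0716 for Sox17 and 0.0636 for Sox7. They were also lost with only the 2 groups in the fit, at 0.0653 and 0.0585. With an offset of 0 Sox17 was lost too (0.101). Both calls also depended on single arrays. Without CA-NFATc3 replicate 1 the adjusted p was 0.193 for Sox17 and 0.104 for Sox7. Without CA-NFATc3 replicate 3 it was 0.160 and 0.185 in the same order. Leaving out replicate 3 of the arrays with both plasmids gave 0.155 for Sox17 and 0.0574 for Sox7. Replicate 2 of those arrays decided Sox17 (0.134 without it), and replicate 1 decided Sox7 (0.135 without it).

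Gata6 (1425464_at) read 35.7, 88.5 and 70.3 with both plasmids, all below the lowest array with CA-NFATc3 alone, at 89.6. The log2 difference of -0.59 ± 0.22 did not pass (limma adjusted p = 0.196). Pdgfra (1421917_at) was low with both plasmids, at 12.7, 10.2 and 3.25. With CA-NFATc3 alone it read 45.8, 67.8 and 85.1, and it was under the filter in the main fit. With no filter on low signals, the setting in which the Sox17 and Sox7 falls were lost, it was called, with a log2 change of -1.26 ± 0.23 (limma adjusted p = 0.00718 over all 45037 probe sets). The other Pdgfra probe sets overlapped between these groups. On 1438946_at the signals were 31.5, 90.8 and 14.3 with both plasmids, against 49.7, 39.0 and 27.0 with CA-NFATc3 alone, and on 1421916_at they stayed under 21.0 in both groups. Neither probe set passed the filter. Cubn (1452270_s_at) read 42.5, 4.54 and 5.18 with both plasmids, against 88.7, 51.1 and 96.3 with CA-NFATc3 alone, also without overlap and untested.

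None of the tested members passed between the arrays labelled Foxd3 alone and vector. Limma called 0 of 6 member probe sets, 2 of them at an unadjusted p under 0.05, beside 1.71 percent of all probe sets called. Those 2 were of Dab2. Its probe set 1420498_a_at read 86.2, 93.7 and 117 in the arrays labelled Foxd3, above all 3 vector arrays, with a log2 difference of 0.59 ± 0.18 (limma adjusted p = 0.150). Sox17 read 27.7, 29.1 and 20.6 on 1429177_x_at, with a log2 difference of -0.20 ± 0.25 (limma adjusted p = 0.834). Sox7 at 111, 104.9 and 107 lay below all 3 vector arrays, with a log2 difference of -0.39 ± 0.20 (limma adjusted p = 0.475).

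Between both plasmids and Foxd3 alone, limma likewise called 0 of 6 member probe sets, 2 at an unadjusted p under 0.05, beside 0.225 percent of all probe sets. Those were Sox17, with 0.69 ± 0.25 (limma adjusted p = 0.705), and Dab2 on 1420498_a_at, with 0.46 ± 0.18 (limma adjusted p = 0.761). The interaction term asks whether the difference between both plasmids and CA-NFATc3 departs from the difference between Foxd3 and vector. Limma called 0 of 6 member probe sets for it, 3 at an unadjusted p under 0.05, beside 0.424 percent of all probe sets. The 3 terms were negative, at -0.73 ± 0.26 and -0.83 ± 0.38 for the Dab2 probe sets and -0.78 ± 0.36 for Sox17, with adjusted p-values between 0.421 and 0.684. A different response of Sox17 to Foxd3 with and without CA-NFATc3 is therefore not shown. All comparisons among the transfected groups share arrays with one another.

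**Figure D3:**
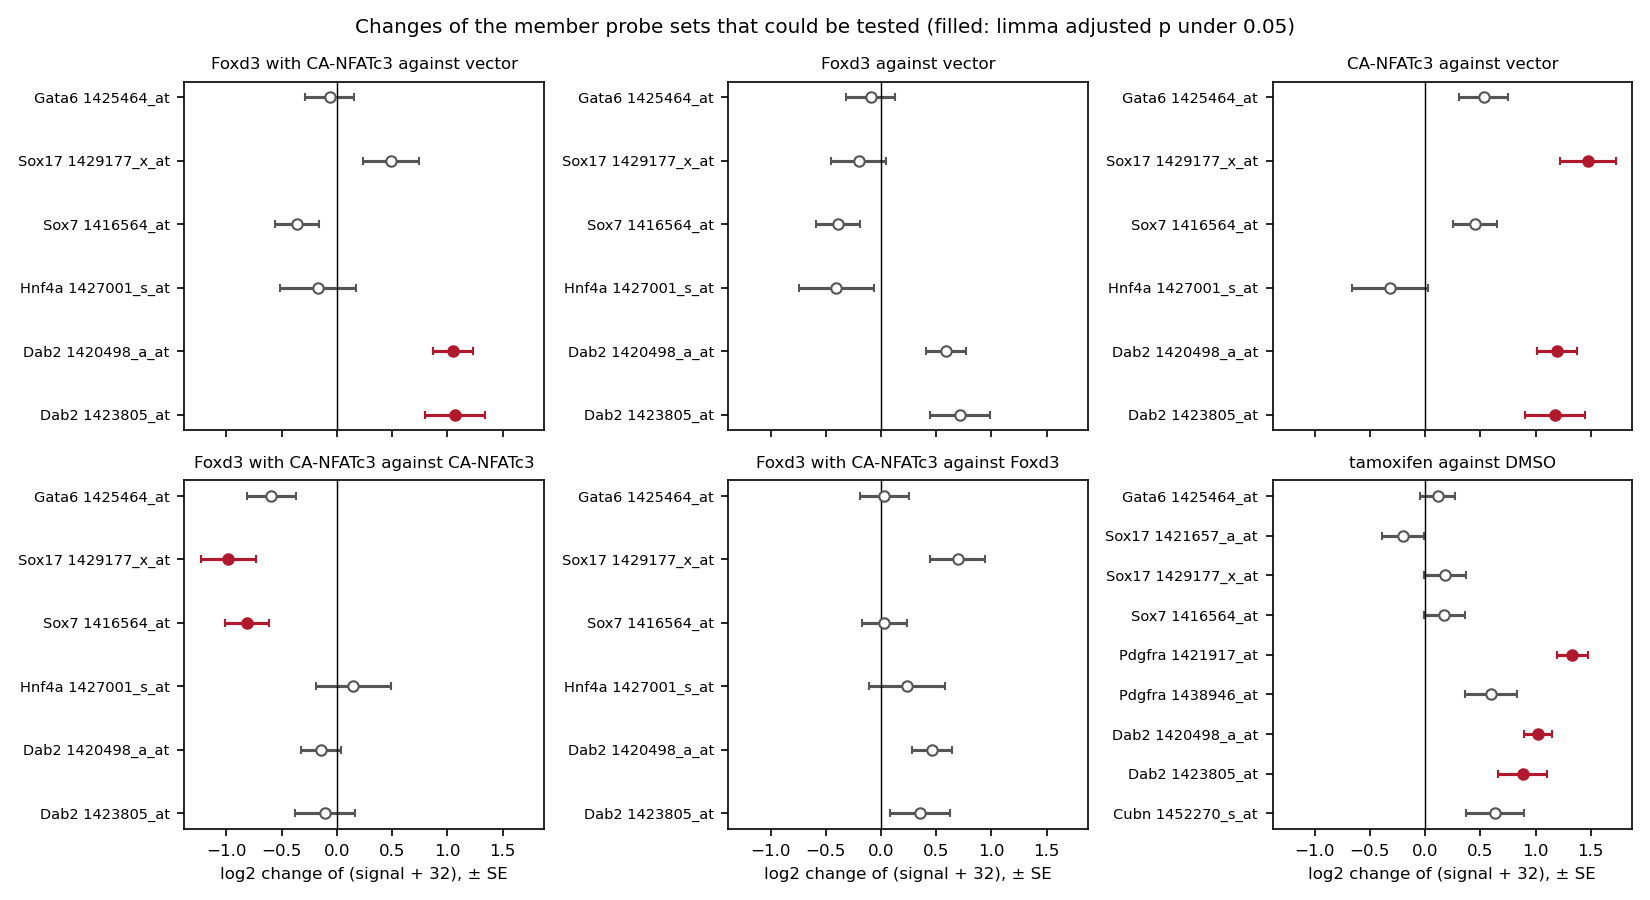
Each panel is 1 comparison, and each row 1 member probe set that could be tested. Points are log2 changes of the signal plus 32, bars are ± SE and filled points have a limma adjusted p under 0.05. Filled points are Sox17 and both Dab2 probe sets with CA-NFATc3, Dab2 with both plasmids, Sox17 and Sox7 on the negative side between both plasmids and CA-NFATc3, and Pdgfra and Dab2 with tamoxifen.

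After 2 days of tamoxifen, Pdgfra and Dab2 rose in the knockout cells while none of the transcription factors that were tested passed. The question is which endoderm genes change when tamoxifen is given to delete Foxd3. No cells without floxed Foxd3 were given tamoxifen here. Effects of the drug or of the activated Cre therefore cannot be told apart from loss of Foxd3. Pdgfra (1421917_at) gave 321, 329 and 335 in the tamoxifen arrays, against 126, 90.2 and 119.6 in the DMSO arrays. The groups were far apart, and the log2 change was 1.33 ± 0.14 (limma adjusted p = 2.70e-05), 2.94-fold on the signal. Its probe set 1438946_at read 136, 62.1 and 101 with tamoxifen, against 70.1, 48.3 and 42.5 with DMSO, overlapping through tamoxifen replicate 2. That difference of 0.60 ± 0.24 missed the threshold (limma adjusted p = 0.0829), and without tamoxifen replicate 2 it was called (0.0300). The probe set 1421916_at stayed under 65.8 in all arrays.

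Dab2 (1420498_a_at) gave 596, 546 and 631 in the tamoxifen arrays, against 223, 300.02 and 306 in the DMSO arrays. All tamoxifen arrays were higher, and the log2 change was 1.02 ± 0.12 (limma adjusted p = 9.96e-05), 2.14-fold. The probe set 1423805_at gave 169.8, 231 and 194 with tamoxifen, against 138, 97.8 and 54.9 with DMSO, also without overlap. It changed by 0.88 ± 0.22 (limma adjusted p = 0.0118), and without tamoxifen replicate 2 the adjusted p was 0.0554. The low probe set 1429693_at was untested, at 61.9, 71.1 and 50.4 with tamoxifen, against 37.1, 34.6 and 49.2 with DMSO.

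Of 9 member probe sets tested in the knockout cells, 3 were called, all higher. This is to be read against 28.3 percent of all probe sets called in either direction and 14.4 percent called higher, since 6932 probe sets passed. Cubn read 151, 140.6 and 206 on 1452270_s_at with tamoxifen, against 115, 143 and 46.3 with DMSO. Its arrays overlapped, and the difference of 0.63 ± 0.26 did not pass (limma adjusted p = 0.0968), although without DMSO replicate 2 it did (0.0377). Gata6 averaged 157 ± 15.4 with tamoxifen and 143 ± 26.3 with DMSO (SD, n = 3 each), a log2 difference of 0.11 (limma adjusted p = 0.642). Sox17 averaged 117 ± 20.1 with tamoxifen and 100.4 ± 25.2 with DMSO on 1429177_x_at, and Sox7 averaged 76.5 ± 12.2 and 64.03 ± 8.30 in the same groups. Their limma adjusted p-values were 0.531 and 0.536, and their arrays overlapped. The Sox17 probe set 1421657_a_at read 59.2, 66.1 and 56.4 with tamoxifen, against 60.3, 94.2 and 71.1 with DMSO, and it did not pass either (limma adjusted p = 0.483). Hnf4a, Gata4 and Foxa2 were not tested in these cells.

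Markers of fibroblasts moved in the same comparison. All 9 markers on the list were tested in the knockout cells, 8 were called higher and 0 lower, with a median log2 change of 2.10 over the list, beside a median of -0.01 over all probe sets tested. Their summed signal lay between 16319 and 18480 in the tamoxifen arrays, against 3060 to 3635 in the DMSO arrays. Dcn, the proteoglycan decorin, had the largest change at 3.54 ± 0.18, followed by Postn (periostin) at 3.49 ± 0.10 and Col1a2 (a type I collagen chain) at 2.72 ± 0.08, with limma adjusted p-values of 8.05e-08, 2.05e-09 and 2.34e-09. Pdgfra is itself abundant in fibroblasts, and Dab2 is expressed in many mesenchymal cells. The part of such cells in the Pdgfra and Dab2 changes was not tested. In bulk RNA, fewer cells of a type and less RNA per cell cannot be told apart. Other lists moved too, beside 28.3 percent of all probe sets called. Of 5 trophoblast markers tested, 1 was higher and 1 lower, with sums of 3704 to 4466 with tamoxifen and 2125 to 2596 with DMSO. Of 4 mesoderm and cardiac markers, 1 was higher, with sums of 1556 to 1667 and 1037 to 1088. Definitive endoderm and endothelial markers each had 1 of 2 called lower. The Actb control probe sets gave a 3′ to 5′ ratio, which is a measure of RNA integrity. It was 1.89 ± 0.00311 with tamoxifen and 2.15 ± 0.0884 with DMSO (SD, n = 3 each). The same ratio for Gapdh was 1.015 ± 0.0144 with tamoxifen and 1.013 ± 0.0309 with DMSO. The part of RNA integrity in these results was not tested.

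In the transfected cells the same 9 markers summed to 1197 to 1335 with both plasmids, 721 to 748 with Foxd3, 794 to 989 with CA-NFATc3 and 585 to 617 with vector. Col1a1, Postn, Lum and Dcn were under 65.8 in all 12 of these arrays. With CA-NFATc3, 1 of the 5 tested markers was called higher, Col3a1, at 2.32 ± 0.22 (limma adjusted p = 9.30e-06), beside the Dab2 and Sox17 changes. With both plasmids, 3 of the 5 were called higher against vector, led by Col1a2 at 2.63 ± 0.25 (limma adjusted p = 2.33e-05). Of these, Mmp2 was lost in 14 alternatives, with adjusted p-values up to 0.192. Trophoblast markers moved with CA-NFATc3 as well, with 3 of 6 called higher, Elf5, Gata2 and Hand1. Hand1 was lost with no filter (0.0611) and in each of the 6 fits without a CA-NFATc3 or vector array (0.0562 to 0.113), and Elf5 with an offset of 0 (0.166). The markers' summed signal was 3637 to 4090 with CA-NFATc3 and 2880 to 3548 with vector. Of definitive endoderm, a layer that also uses Sox17, the markers Cer1, Gsc and Mixl1 were under 65.8 in all transfected arrays, and limma called 0 of the 2 tested with CA-NFATc3, 0 of them at an unadjusted p under 0.05. The endothelial markers Cdh5, Emcn and Tie1 were under 65.8 in every array of both sets of cells. Of the 3 endothelial markers tested in the transfected cells, limma called 0 with CA-NFATc3 and 1 higher with both plasmids against vector. This was Kdr, at a log2 change of 1.29, and it was lost in several settings, with adjusted p-values up to 0.179. Over all probe sets, 3.57 percent were called with CA-NFATc3 and 2.84 percent with both plasmids against vector. The part of other cell types in the changes of the transfected cells was not tested.

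**Figure D4:**
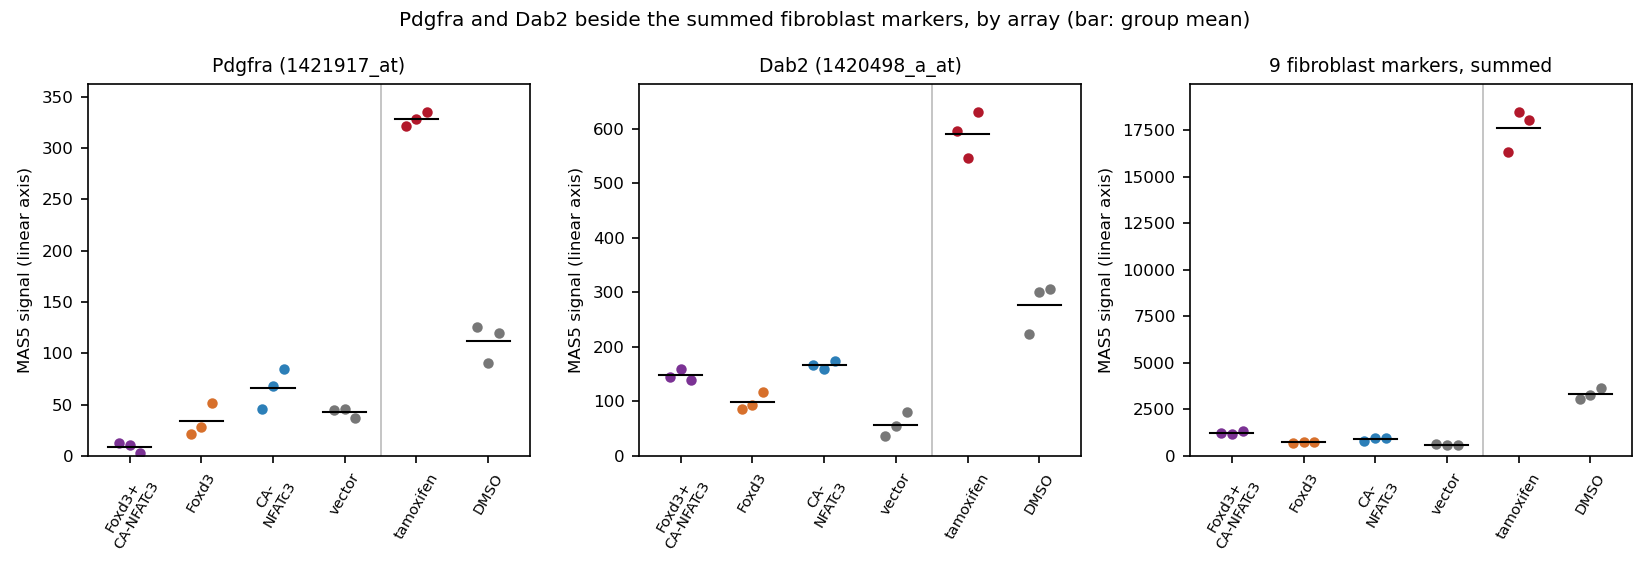
Points are single arrays and bars group means, on linear axes of MAS5 signal, for Pdgfra, Dab2 and the sum of 9 fibroblast markers. All 3 are highest in the tamoxifen arrays, where the summed markers lie between 16319 and 18480, against 3060 to 3635 with DMSO.

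Across all 6 groups, the order of the levels differed between genes. Dab2 (1420498_a_at) averaged 591 ± 42.7 with tamoxifen, 277 ± 46.2 with DMSO, 167 ± 7.24 with CA-NFATc3, 148 ± 10.6 with both plasmids, 99.1 ± 16.3 with Foxd3 and 56.7 ± 22.4 with vector (SD, n = 3 each). Each gap between neighbours in that order exceeded the larger SD, and no neighbouring groups overlapped. The lowest CA-NFATc3 array (160.08) was barely above the highest with both plasmids (159.93). In limma, CA-NFATc3 against both plasmids, both plasmids against Foxd3 and Foxd3 against vector did not pass. Pdgfra (1421917_at) followed the order tamoxifen, DMSO, CA-NFATc3, vector, Foxd3 and both plasmids, at 328 ± 7.05, 112 ± 19.0, 66.2 ± 19.7, 42.8 ± 4.75, 33.6 ± 15.99 and 8.70 ± 4.88. There the vector and Foxd3 groups did not differ beyond their spread. The CA-NFATc3 and vector arrays overlapped slightly, with a lowest CA-NFATc3 array of 45.83 and a highest vector array of 45.90. Sox17 (1429177_x_at) had its highest mean with CA-NFATc3, at 158 ± 54.6, followed by tamoxifen and DMSO, and neighbouring groups overlapped throughout the order. Gata6 (1425464_at) and Cubn (1452270_s_at) had their highest means with tamoxifen, followed by DMSO and CA-NFATc3, and Sox7 (1416564_at) had its highest with CA-NFATc3 and its lowest with DMSO. Lower probe sets of the same genes ran in other orders, such as Gata6 1425463_at, which was highest with CA-NFATc3 at 57.1 ± 5.74. The knockout and transfected cells were not tested against each other.

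Genes upstream of the members were read from the list of FGF and ERK signalling, of which 13 were tested. Counts for this and the next lists stand beside the share of all probe sets called in either direction. That share was 3.57 percent with CA-NFATc3 and 1.71 percent with Foxd3, each against vector. It was 3.92 percent between both plasmids and CA-NFATc3, and 28.3 percent with tamoxifen. Counts near that share say nothing particular about a list. With CA-NFATc3, 2 of the 13 FGF and ERK genes were called higher and 0 lower, with a list median of 0.16. Fgfr2, an FGF receptor used by primitive endoderm, averaged 279 ± 30.5 with CA-NFATc3 and 104 ± 12.4 with vector (SD, n = 3 each), a change of 1.19 ± 0.15 (limma adjusted p = 0.000145). Dusp6, a phosphatase induced by ERK, changed by 0.63 ± 0.09 (limma adjusted p = 0.000415). With both plasmids Fgfr2 fell by 0.78 ± 0.15, against CA-NFATc3 (limma adjusted p = 0.00622), and it was the only called gene of the list there. With tamoxifen, 5 were called higher and 3 lower. Fgf4, the ligand made by epiblast and stem cells, averaged 967 ± 142 with tamoxifen and 2779 ± 285 with DMSO and fell by 1.497 ± 0.107 (limma adjusted p = 1.29e-06). Fgfr2 rose by 0.70 ± 0.11 in the same comparison (limma adjusted p = 0.000532).

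The ligands of Pdgfra and its partner receptor gave 4 tested genes. With CA-NFATc3 only Pdgfb was called, with 0.84 ± 0.19 (limma adjusted p = 0.0185), and it was lost in 4 fits that left out an array, with adjusted p-values between 0.0568 and 0.131. With tamoxifen 3 of 4 were called higher, beside Pdgfra. Pdgfrb, the partner receptor and also 1 of the fibroblast markers, rose by 1.03 ± 0.12, and the ligand Pdgfa rose by 0.65 ± 0.10 (limma adjusted p-values 8.61e-05 and 0.000382). Pdgfc, another ligand, was called at 0.27 ± 0.08 (limma adjusted p = 0.0264) but not in 7 other settings, with adjusted p-values up to 0.154.

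Few paralogs and cofactors of the members were called. With CA-NFATc3, 1 of 7 tested was called, Gata2, a GATA factor of trophoblast and blood, at 0.96 ± 0.17 (limma adjusted p = 0.00283). It fell by 0.99 ± 0.17 with both plasmids, against CA-NFATc3 (limma adjusted p = 0.00269). With tamoxifen, 1 of 8 was higher and 1 lower. Zfpm2, a cofactor of GATA factors, rose by 1.12 ± 0.15, and Dab1, an adaptor related to Dab2, fell by 1.07 ± 0.12 (limma adjusted p-values 0.000178 and 4.85e-05).

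Regulators and signals of visceral endoderm moved in both directions. With CA-NFATc3, 3 of the 6 tested genes were called higher and 1 lower, with a list median of 0.55, beside a median of -0.01 over all probe sets tested. Eomes, a T-box factor of visceral endoderm and trophoblast, averaged 520 ± 61.2 with CA-NFATc3 and 111 ± 29.2 with vector (SD, n = 3 each), a change of 1.97 ± 0.19 (limma adjusted p = 1.48e-05). Bmp2, a ligand made by visceral endoderm, averaged 105.5 ± 35.2 with CA-NFATc3 and 22.1 ± 2.64 with vector and rose by 1.32 ± 0.20 (limma adjusted p = 0.000781). Tcf7l2, a Wnt effector, rose by 0.97 ± 0.16 (limma adjusted p = 0.00153). With both plasmids Eomes fell by 1.42 ± 0.19, against CA-NFATc3 (limma adjusted p = 0.000419). Bmp2 went the other way and rose by 1.40 ± 0.20 to a mean of 326 ± 58.9 in those arrays (limma adjusted p = 0.000573). Lefty1, a Nodal inhibitor expressed in both stem cells and visceral endoderm, was also higher there, by 1.42 ± 0.10 (limma adjusted p = 1.09e-06). In the arrays labelled Foxd3 alone, 2 of the 6 were called higher and 0 lower against vector. The summed signal of the list was 7498 to 9076 with Foxd3 alone and 7450 to 8476 with both plasmids. It was 4023 to 4608 with CA-NFATc3 alone and 5137 to 5783 with vector. With tamoxifen 1 of the 6 was higher and 1 lower, Lefty1 and Hhex. Lefty1 was lost in 4 fits that left out an array (0.0511 to 0.0600), and Hhex without tamoxifen replicate 3 (0.0576).

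Secreted products of visceral endoderm were largely at low signals. Afp, Ttr, Apoa1, Apoa4 and Apoc2 stayed under 65.8 in every array of both sets of cells. Only 3 of the 11 genes on the array could be tested in the transfected cells, and limma called 0 of them with CA-NFATc3, 0 also at an unadjusted p under 0.05. With tamoxifen 1 of 3 was called, Apoe, an apolipoprotein made by many cell types, which rose by 0.46 ± 0.06 (limma adjusted p = 0.000184).

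Products of parietal endoderm and basement membranes rose in part with CA-NFATc3, with 5 of 14 called higher and 0 lower and a list median of 0.21. Col4a1, a type IV collagen chain, averaged 2713 ± 630 with CA-NFATc3 and 314 ± 21.9 with vector (SD, n = 3 each), a change of 2.97 ± 0.13 (limma adjusted p = 1.21e-09). Col4a2, its partner chain, averaged 731 ± 196 with CA-NFATc3 and 128 ± 12.5 with vector and rose by 2.23 ± 0.17 (limma adjusted p = 6.64e-07). Krt19, a keratin of simple epithelia, rose by 2.29 ± 0.26 (limma adjusted p = 5.58e-05). With both plasmids 1 of 14 was higher and 5 lower, against CA-NFATc3. The log2 changes there were -1.75 ± 0.13 for Col4a1, -1.57 ± 0.26 for Krt19 and -1.29 ± 0.17 for Col4a2 (limma adjusted p-values 1.27e-06, 0.00198 and 0.000234). Against vector, Col4a1 with both plasmids was higher by 1.21 ± 0.13 (limma adjusted p = 7.73e-05). In the arrays labelled Foxd3 alone, 2 of 14 were called higher and 1 lower against vector. Col4a1 was 1 of the 2, and its call was lost without Foxd3 replicate 3 (limma adjusted p = 0.0743). With tamoxifen 6 were higher and 3 lower. Thbd, thrombomodulin, rose by 1.73 ± 0.18, Fst, follistatin, rose by 1.25 ± 0.14, and Krt19 fell by 0.90 ± 0.19 (limma adjusted p-values 3.63e-05, 5.37e-05 and 0.00487).

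Of 6 tested partners of Cubn and Dab2 in endocytosis, 1 was called with CA-NFATc3. This was Lrp2, the receptor megalin, which forms a complex with cubilin and binds Dab2. It averaged 399 ± 144 with CA-NFATc3 and 59.0 ± 16.8 with vector (SD, n = 3 each), a change of 2.21 ± 0.24 (limma adjusted p = 4.39e-05). With both plasmids it averaged 111 ± 36.8 and fell by 1.58 ± 0.24, against CA-NFATc3 (limma adjusted p = 0.00109). With tamoxifen 1 of 6 was called, Lrpap1, the chaperone of receptors of the LDL receptor family, which rose by 0.86 ± 0.05 (limma adjusted p = 2.18e-07).

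**Figure D5:**
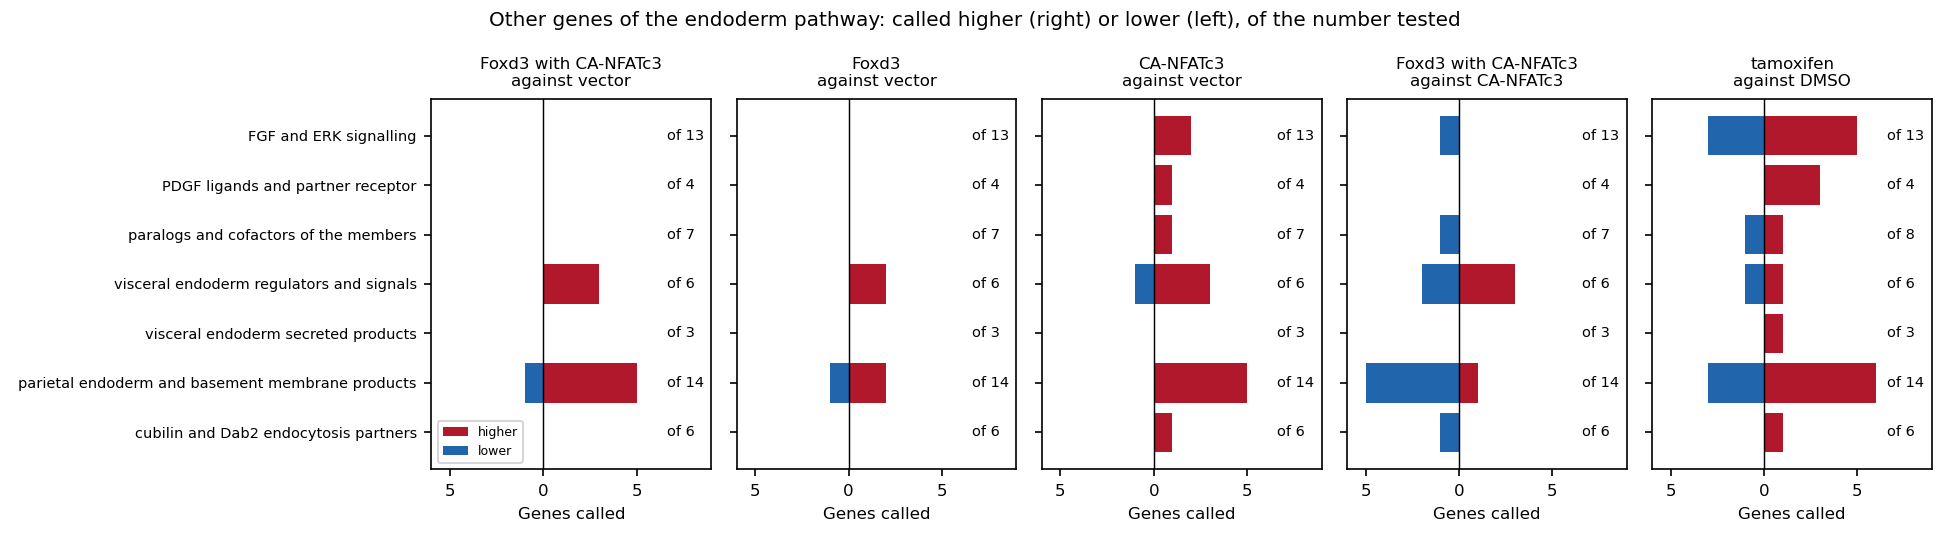
Bars count the genes of each list called higher (to the right) or lower (to the left) by limma in each comparison, and the labels give the number tested. Basement membrane products have 5 higher and 0 lower with CA-NFATc3, and 1 higher and 5 lower between both plasmids and CA-NFATc3.

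The genes whose signals followed those of a member most closely over the 12 transfected arrays were taken from 572 probe sets that spanned at least 1 log2 unit between group means. For Sox17 these were Gem, Hopx and Dmkn, with Pearson correlations of 0.936, 0.930 and 0.922. For Dab2 they were Jun, Ccn1 and Ltbp3, at 0.930, 0.924 and 0.918. For Gata6 they were Nupr1, Acp5 and Ptpre, at 0.905, 0.884 and 0.867. For Pdgfra, on its low and untested probe set 1438946_at, the closest were Safb2, Rab3il1 and Lonp2, at only 0.650, 0.597 and 0.568. The points share 4 groups of 3 arrays, and the candidates were limited to probe sets that differ between those groups, so the correlations describe these arrays only.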

How the data were processed

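Total RNA of 18 samples was hybridised to Affymetrix arrays, 3 biological replicates in each of 6 groups. The deposited values are a signal intensity per probe set, computed by the authors with MAS5 per the submitters' processing notes, and array means trimmed by 2% at each end were all 500. Median signals were 55.2 to 67.1 in the transfected and 73.0 to 80.7 in the knockout cells. The array held 45101 probe sets, with 64 controls. A single gene symbol was given for 34945, several for 932 and none for 9160.

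Signals plus 32 were put on the log2 scale without further normalization. Group means were fitted with limma 3.58.1 (R 4.3.3; lmFit, eBayes with a trend) on all probe sets with 65.8 in at least 3 arrays, 23595 in the 12 transfected arrays and 24490 in the 6 knockout arrays, fitted apart. Tests were two-sided, with Benjamini-Hochberg adjustment over all probe sets tested. Scripts were tested on simulated data. Alternatives were quantile normalization, other offsets, filters and fits, 1 probe set per gene, a replicate block and leaving out each array. Besides all members and the targeted genes, the 3 called genes with the largest change per list and the 3 closest genes to 4 members are named. The members and lists were chosen with earlier results of these data known. The labels call the replicates biological without naming separate cultures, so p-values measure the spread between these samples. The arrays' number limits the precision. Genes of the lists that are not on the array, and some other genes, are not analysed here.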

Additional observations from a re-analysis of the deposited data

Results flagged for a closer look

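The difference between both plasmids and CA-NFATc3 departed from the difference between Foxd3 and vector for 6 named genes of the lists, by the interaction term of limma, and for 0 of 6 member probe sets, 3 of which had an unadjusted p under 0.05. The log2 term was -2.46 ± 0.19 for Col4a1 and -1.69 ± 0.24 for Col4a2 (limma adjusted p-values 4.08e-06 and 0.00234). It was -2.07 ± 0.34 for Lrp2 and -1.59 ± 0.28 for Eomes (0.0106 and 0.0139). For Elf5, a trophoblast factor, it was -2.10 ± 0.36, and for Fgfr2 -1.11 ± 0.21 (0.0123 and 0.0271). Elf5 was not called with an offset of 0 (0.696), Eomes not without CA-NFATc3 replicate 3 (0.0673), and Fgfr2 not in 9 settings, with adjusted p-values up to 0.124.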

How the results depend on the processing

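No call changed direction under any alternative that was run, and 16 uncalled member values changed sign. Of the alternative values of single probe sets, 838 of the members and 1542 of the list genes kept their side of the threshold, 25 and 112 lost a call, and 2 of the members gained one. A replicate block raised the probe sets called to 966 for Foxd3 (main 403), 1397 for CA-NFATc3 (main 842) and 1450 for both plasmids (main 669) against vector. They were 1619 for both plasmids against CA-NFATc3 (main 926), 119 against Foxd3 (main 53) and 228 for the interaction (main 100). Same-numbered transfected arrays had residual correlations of 0.0716 to 0.263, not all over 0.1, against -0.245 to 0.0345 for different numbers. Each of the 12 was closest to its own number in every other group. The transfected arrays thus shared a difference by replicate number, which the main fit left out. The 3 knockout pairs lay between -0.0260 and 0.0272, within the -0.0290 to 0.0367 of knockout arrays with different numbers. They do not bear on the transfected arrays. All 18 arrays in 1 fit gave 629 calls for Foxd3, 1031 for both plasmids against vector and 178 for the interaction, and 4 members between both plasmids and CA-NFATc3 (main 2). An offset of 0 gave 34 calls between both plasmids and Foxd3 and 65 for the interaction, and 1 probe set per gene gave 4205 with tamoxifen (main 6932). Members called for both plasmids against vector were 1 (main 2) with quantile normalization, offsets of 0 and 64, no filter, a filter on the mean, 1 probe set per gene or only the 2 groups. Between both plasmids and CA-NFATc3 they were 1 with an offset of 0 (Sox7), 1 with no filter and 0 with only the 2 groups. The 1 with no filter was Pdgfra, while Sox17 (0.0716) and Sox7 (0.0636) were both lost. Leaving out 1 array gave 195 to 416 calls for Foxd3, 436 to 839 for CA-NFATc3, 363 to 704 for both plasmids against vector, 461 to 926 against CA-NFATc3, 23 to 50 against Foxd3 and 52 to 97 for the interaction. Members called then were 1 to 2 for both plasmids against vector and 0 to 2 against CA-NFATc3. Low signals limit the members: 13 of the 23 probe sets were tested in neither the transfected nor the knockout fit.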
